A study of Mus musculus with 6 samples.

Results

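Reads from genes that mark other cell lineages were followed in 6 RNA-seq libraries of sorted type 1 conventional dendritic cells (cDC1s). The 40 genes mark T cells, B cells, antibody-secreting cells, natural killer (NK) cells, plasmacytoid dendritic cells (pDCs), monocytes and macrophages, granulocytes, red cells, stromal cells and lung epithelium. They were taken by symbol from a list chosen with earlier results of these data known. All 40 were found among the 32285 features of the count table. All mice were C57BL/6, all were HDM-sensitized (house dust mite extract), and cDC1s were isolated by FACS from digested mLN tissue 24 h after 50 µg HDM given by the nose. Of the libraries, 3 came from wild-type mice (WT) and 3 from mice with a conditional knock-out of Vps33B, labelled Vps33BdeltaDC (KO). The Cre driver, the sort gate and the number of mice behind a library are not given in the labels. Nothing in the labels says that replicates came from separate mice, so p-values measure the spread between these libraries, which may be technical.

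A sort by surface markers enriches a cell type but keeps a small number of other cells and of RNA released by broken cells. A few lineages make single transcripts in very large amounts, among them haemoglobin mRNA in red cells and antibody mRNA in plasma cells, so that a trace of such cells can be seen in bulk RNA. Each antibody-secreting clone uses 1 rearranged heavy-chain V segment and 1 light-chain V segment, and different clones can use the same segment. Some of the genes are not exclusive to their lineage: Cd4, Cd5, Ccr2, Lyz2 and Cd300a are also made by some dendritic cells.

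Libraries held 11755944 to 18450678 gene counts, so 1 CPM (counts scaled to library size by TMM) stood for about 11.8 to 18.5 counts. Vps33b, which encodes a vesicle fusion protein, was at 16.2, 19.1 and 13.8 CPM in WT replicates 1, 2 and 3 and at 5.0, 7.01 and 8.29 in KO replicates 1, 2 and 3. Every KO library lay below every WT library (exact two-sided permutation test, p = 0.1, the smallest that 3 against 3 allows). The cDC1 genes Irf8 (1240 to 1740 CPM), Batf3 (124 to 176), Clec9a (50.8 to 85.5), Cd8a (30.2 to 140), Itgae (11.2 to 24.5) and Xcr1 (5.72 to 44.6) were present in all libraries, and Ccr7, the homing receptor of mature dendritic cells, stood at 4360 to 5470 CPM. Xcr1 and Cd8a were highest in WT replicate 2. Id2, another cDC1 factor, was at 980 to 1490 CPM, and Fscn1, which bundles actin in mature dendritic cells, at 4870 to 7490. Klf4 (82.3 to 166 CPM) and Irf4 (78.8 to 181), factors of type 2 conventional dendritic cells, were also present. The other genes listed for those cells were lower, with Sirpa at 13.7 to 35.3 CPM and Itgam at 1.16 to 11.5. Mgl2, Clec10a, Clec4a4 and Cd209a were at 0.0 to 1.85 CPM. KO replicate 3 held the lowest pairwise correlation of log2 CPM, 0.928 with KO replicate 1, and its correlations with the other libraries reached 0.948, against 0.945 to 0.958 among the other 5.

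The 40 genes together took 0.0515%, 0.0543% and 0.129% of all counts in WT replicates 1, 2 and 3 and 0.129%, 0.0759% and 0.122% in KO replicates 1, 2 and 3. Exact 95% intervals, which cover counting error only, were as narrow as 0.127% to 0.131% in WT replicate 3 and 0.12% to 0.124% in KO replicate 3. WT replicate 3 stood with the KO libraries, so the groups overlapped. Antibody genes made up most of the total in every library but WT replicate 1, and without them the shares were 0.0316%, 0.0206% and 0.033% in WT and 0.0429%, 0.0316% and 0.0591% in KO. In bulk RNA, fewer cells of a type and less RNA per cell cannot be told apart, and the source of these reads was not tested.

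**Figure D1:**
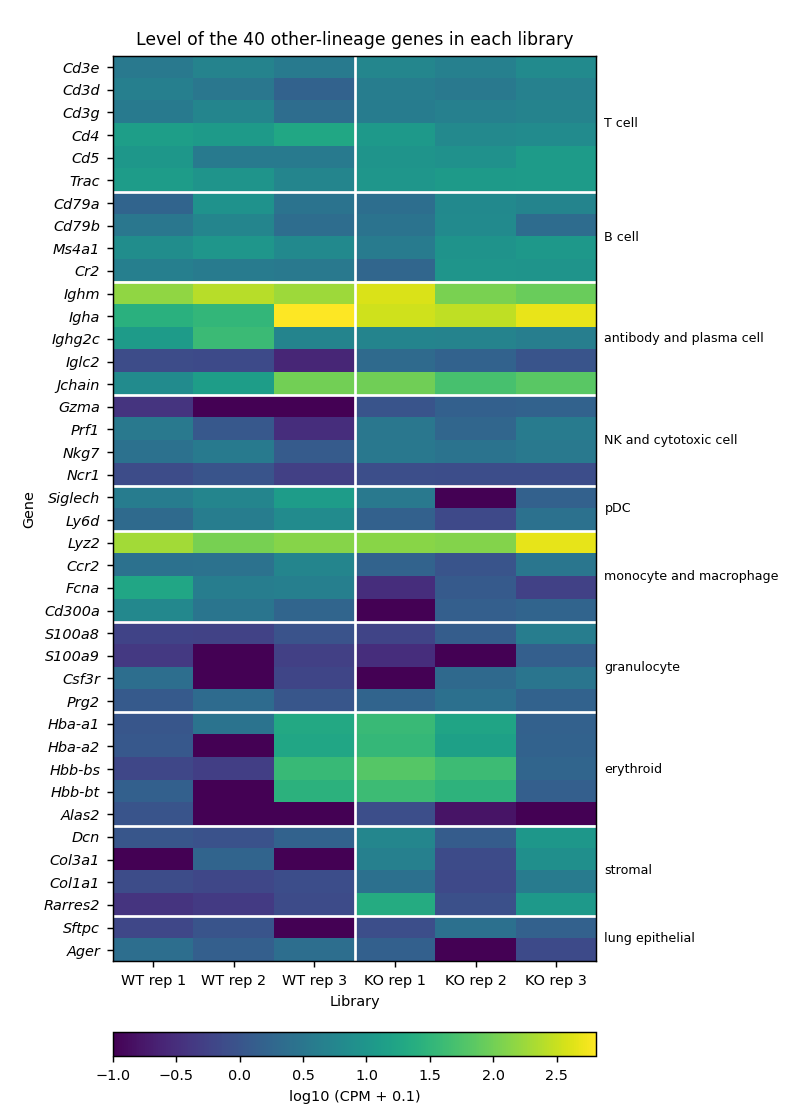
Level of each of the 40 genes (rows, grouped by lineage) in each library (columns), as log10 of CPM plus 0.1 on the colour scale. The haemoglobin rows are bright in WT replicate 3 and KO replicates 1 and 2, Igha and Jchain are dim only in WT replicates 1 and 2, and the stromal rows are brightest in KO replicates 1 and 3.

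Antibody genes differed from library to library both in level and in makeup. Igha, the constant region of IgA (chr12:113254830-113260236, minus strand, GRCm38), was at 26.5, 33.7 and 651 CPM in WT and at 351, 285 and 487 in KO. Jchain, the small chain that joins IgA or IgM units (chr5:88519809-88527891, minus strand), was at 6.76, 13.3 and 101 CPM in WT and at 95.3, 51.0 and 68.5 in KO. Both genes were low in WT replicates 1 and 2 and higher in the other 4 libraries, with the highest value of each in WT replicate 3, so the groups overlapped. The log2 fold change, KO over WT, was 0.65 (SE 1.4) for Igha and 0.80 (SE 1.06) for Jchain, with adjusted p of 0.959 and 0.936 in edgeR's quasi-likelihood test over all 12568 genes tested. Without WT replicate 3 the Igha value became 3.64, with an adjusted p of 0.00111 in the same test, and Jchain became 2.86 with an adjusted p of 0.108. That library alone made the groups overlap, so these p-values follow from the choice of library. Leaving out any other library gave 0.12 to 0.8 for Igha.

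Ighm, the constant region of IgM, followed another order. It was at 149, 255 and 180 CPM in WT and at 390, 110 and 86.3 in KO, with the highest and the lowest library both KO. Ighg2c, the constant region of IgG2c, was at 12.1, 39.1 and 5.08 CPM in WT and at 5.07, 5.02 and 4.23 in KO. The groups did not overlap for Ighg2c, but WT replicate 3 and KO replicates 1 and 2 were nearly equal. Its log2 fold change was -1.91 (SE 0.85, edgeR adjusted p = 0.834), and -0.84 without WT replicate 2. Iglc2, a lambda light-chain constant region, held 3 to 12 counts per WT library and 10 to 27 per KO library, which did not overlap once scaled to CPM.

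Per transcript length, Igha reached a mean of 384 TPM (counts per exon base, scaled to a fixed total in each library) and Ighm 348 TPM over the 6 libraries, against 695 TPM for Irf8, the transcription factor that defines cDC1s, and 316 TPM for Batf3. Jchain reached 74.8 TPM. Of all heavy-chain constant counts, Ighm held 58.8%, 66.5% and 17.5% in WT and 50.1%, 24.4% and 11.3% in KO. Igha held 10.5%, 8.81% and 63.6% in WT and 45.1%, 63.2% and 63.5% in KO. IgM thus led in WT replicates 1 and 2 and KO replicate 1, and IgA in the other libraries. Of the further antibody genes, Igkc, the kappa light-chain constant region, was the most abundant at 57.5, 86.6 and 394 CPM in WT and 314, 169 and 328 in KO, low in the same WT libraries as Igha. Ighg2b, the constant region of IgG2b, was next at 42, 11.4 and 156 CPM in WT and 9.05, 31.2 and 168 in KO. It was highest in replicate 3 of both groups and held 21.9% of heavy-chain constant counts in KO replicate 3, more than Ighm there. Of 12 further genes of this lineage 9 were tested. Igkc alone of these was highest in the 4 libraries with higher Igha, as were 6.43% of all genes tested. The plasma-cell genes Mzb1 (0.0 to 2.38 CPM, 0.0 in KO replicate 1), Derl3 (0.0 to 2.65, 0.0 in WT replicate 3) and Sdc1 (1.65 to 3.52) did not follow Igha. Tnfrsf17 had no count, and Prdm1 was highest in WT replicate 1 (38.5 CPM).

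Counts of V segments were concentrated on a few segments, and the heavy-chain segments that led in the 4 libraries rich in Igha are printed because a different one led in each. The table holds counts per segment, so clones that share a segment cannot be told apart. Each line gives the last 60 bases of the segment as spliced, 5′ to 3′, from the GENCODE M21 transcripts, with capitals from the codon TGT of the conserved cysteine at which the third antigen-contact loop begins.
Ighv7-3: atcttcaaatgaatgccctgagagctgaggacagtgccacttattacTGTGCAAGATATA
Ighv6-6: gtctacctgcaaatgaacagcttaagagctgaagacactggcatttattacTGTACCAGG
Ighv1-26: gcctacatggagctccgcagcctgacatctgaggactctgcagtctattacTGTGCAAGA
Ighv1-22: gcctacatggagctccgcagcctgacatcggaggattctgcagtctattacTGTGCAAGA
They lie in the heavy-chain locus on the minus strand of chromosome 12 (GRCm38), at chr12:114153180-114153239, chr12:114434788-114434847, chr12:114788372-114788431 and chr12:114746273-114746332 in the order printed. Ighv1-26 and Ighv1-22 share 96.1% of their last 280 bases, and Ighv1-18 shares 97.1% and 96.4% with them, so reads of that family could be assigned to a neighbour. Ighv7-3 and Ighv6-6 have nearest relatives at 93.6% (Ighv7-2) and 92.1% (Ighv6-5).

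Ighv7-3 held 54.9% of all heavy-chain V counts in WT replicate 3 (exact 95% interval 52.7% to 57.1%, of 2037 counts). Ighv6-6 held 63.4% in KO replicate 1 (59.6% to 67.1%, of 658), Ighv1-26 held 81.3% in KO replicate 2 (77.9% to 84.4%, of 579) and Ighv1-22 held 73.3% in KO replicate 3 (70.4% to 76.1%, of 944). In each of these libraries a different segment led. The leading shares were lower in the other libraries, at 24.3% for Ighv3-6 in WT replicate 1 (19.2% to 29.8%, of 268 counts) and 25.1% for Ighv6-6 in WT replicate 2 (19.3% to 31.7%, of 203). Only 7 to 19 of the 185 heavy-chain V segments in the table had any count in a library. Heavy-chain V counts came to 3.58 (WT replicate 2) to 10.9 (KO replicate 3) per 100 heavy-chain constant counts. How reads that match several segments were counted is not given, and its effect on these shares was not tested. Ighv7-3 held 1118 counts in WT replicate 3 and 0 to 8 elsewhere, and Ighv1-22 held 692 in KO replicate 3 and 0 to 15 elsewhere.

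Kappa light-chain counts also lay on few segments, with 12 to 19 of 160 segments counted per library. Igkv3-10 led in WT replicate 3 (55.4% of 3043 counts) and KO replicate 3 (69.5% of 1531), Igkv17-127 in KO replicate 2 (67.9% of 617) and Igkv10-96 in KO replicate 1 (45.2% of 1378, with Igkv9-120 at 43.7%). Igkv1-135 led in WT replicate 1 (34.4% of 256) and Igkv5-39 in WT replicate 2 (32.7% of 346). Igkv3-10 is 98.2% identical to Igkv3-5 over its last 280 bases, so its count may hold reads of that neighbour. Lambda V counts were few, 4 to 33 per library, and Iglv1 led in all of them. Among the heavy-chain J segments, named after their values were seen, Ighj1 led in WT replicate 3 (53.8% of 264 counts), Ighj3 in KO replicate 3 (88.4% of 69) and Ighj4 in KO replicates 1 (75.0% of 96) and 2 (85.9% of 64).

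**Figure D2:**
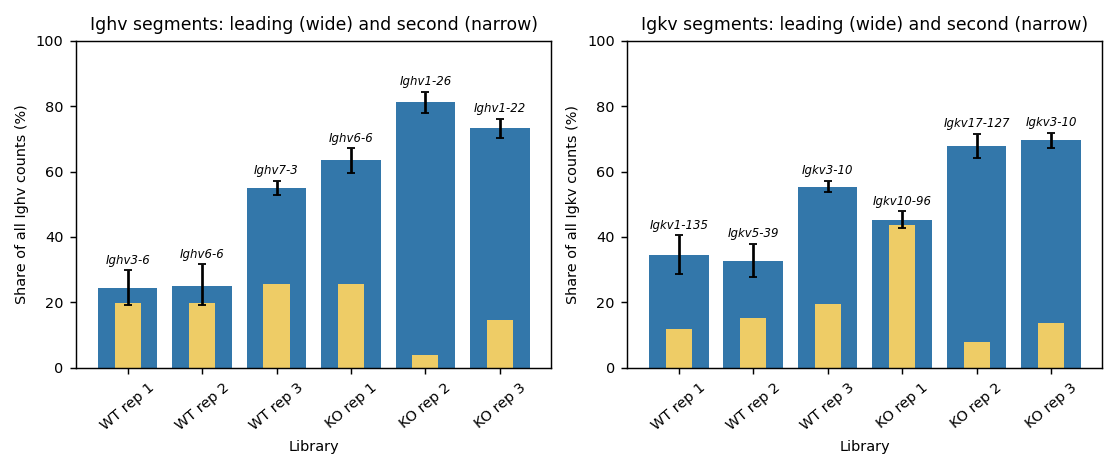
Share of all Ighv counts (left) and all Igkv counts (right) held by the leading segment (wide bars, named, with exact 95% binomial intervals for counting error) and by the second segment (narrow bars) in each library. Leading Ighv segments hold 24.3% and 25.1% in WT replicates 1 and 2 and 54.9% to 81.3% in the other libraries.

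Red-cell transcripts had the widest range of summed level among the 10 lineages, 55.9-fold between libraries, with high and low libraries in both groups. The adult globin genes are close duplicates whose promoters carry the same short motifs, and 1 promoter of each pair is shown because all 4 genes were high in the same libraries. Each line is the 150 bases before the start of the gene in RefSeq (GRCm38.p6), 5′ to 3′ on the gene's strand, with capitals at each CCAAT box, CACCC box and TATA-type motif (ATATAA). Both strands were searched, and no match shown overlaps another.
Hba-a1: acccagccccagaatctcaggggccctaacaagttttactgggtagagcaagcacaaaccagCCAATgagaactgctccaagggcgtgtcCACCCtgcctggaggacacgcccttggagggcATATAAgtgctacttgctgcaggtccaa
Hbb-bs: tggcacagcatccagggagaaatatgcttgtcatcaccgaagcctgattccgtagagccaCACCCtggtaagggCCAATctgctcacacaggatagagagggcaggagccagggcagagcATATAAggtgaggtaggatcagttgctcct
They lie at chr11:32283522-32283671 on the plus strand and at chr7:103827929-103828078 on the minus strand. All 4 globin promoters hold all of these motifs. Over 32851 promoter windows of the same length, the CCAAT box was found in 24.5%, the CACCC box in 37.4%, the TATA-type motif in 5.35% and all of them together in 0.423%. A match is a description of the letters, not evidence of binding, and 26 of the 40 genes had a promoter entry.

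Hbb-bs, a beta-globin gene, was at 0.55, 0.406 and 36.5 CPM in WT and at 63.5, 40.4 and 1.68 in KO. Hba-a1, an alpha-globin gene, was at 0.934, 2.77 and 20 CPM in WT and at 38, 16.8 and 1.41 in KO. WT replicate 3 and KO replicates 1 and 2 were high for both, and WT replicates 1 and 2 and KO replicate 3 were low. Hbb-bt was at 1.37, 0.0 and 28.2 CPM in WT and at 41.0, 28.7 and 1.32 in KO, and Hba-a2 was at 1.04, 0.0 and 17.7 in WT and at 34.5, 14.7 and 1.5 in KO. The highest library exceeded the lowest 157-fold for Hbb-bs and 40.7-fold for Hba-a1. For Hbb-bt and Hba-a2, at 0 in WT replicate 2, KO replicate 1 was at least 202-fold and at least 170-fold higher than the level that 3 counts would give there.

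The 4 globin genes took 0.000398%, 0.000314% and 0.0105% of counts in WT and 0.018%, 0.00989% and 0.00057% in KO, with the exact 95% intervals of the 3 high libraries (lowest bound 0.00943%) far from those of the low ones (highest bound 0.000724%). The log2 fold changes, KO over WT, ran from 1.23 (SE 1.29) for Hba-a1 to 1.46 (SE 1.61) for Hbb-bs, each with an SE larger than itself, and the edgeR adjusted p ran from 0.915 to 0.931. Leaving out WT replicate 3 moved Hbb-bs to 6.2 with an adjusted p of 0.917. Coding sequences of Hba-a1 and Hba-a2 are the same at 428 of 429 bases, and those of Hbb-bs and Hbb-bt at 443 of 444, so the split of reads within each pair is uncertain. The alpha pair was nevertheless divided 53.0%, 52.4% and 53.3% to Hba-a1 in the 3 high libraries.

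Alas2, which encodes the first enzyme of haem synthesis in red-cell precursors, differed from the globins in order. It held 16, 0 and 0 counts in WT and 10, 1 and 0 in KO, so that among the globin-rich libraries KO replicate 1 held 10 and the others 0 and 1, while WT replicate 1, poor in globin, held the most. It passed no low-count filter and was not tested, and 12.94% of its exon bases overlap Apex2 on the other strand. For the 4 globin genes the 3 globin-rich libraries were the highest, as for 3.16% of all genes tested. Those libraries were picked from these same 4 genes, so this match is a description and carries no test. Of 11 other erythroid genes only Car2 and Bpgm were high enough to be tested, and neither showed that order. The summed level of the 11 ran from 13.7 to 23.2 CPM. Car2, a carbonic anhydrase, was the most abundant of them at 8.59 to 15.4 CPM, followed by Bpgm, an enzyme of red-cell glycolysis, at 5.07 to 8.68.

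**Figure D3:**
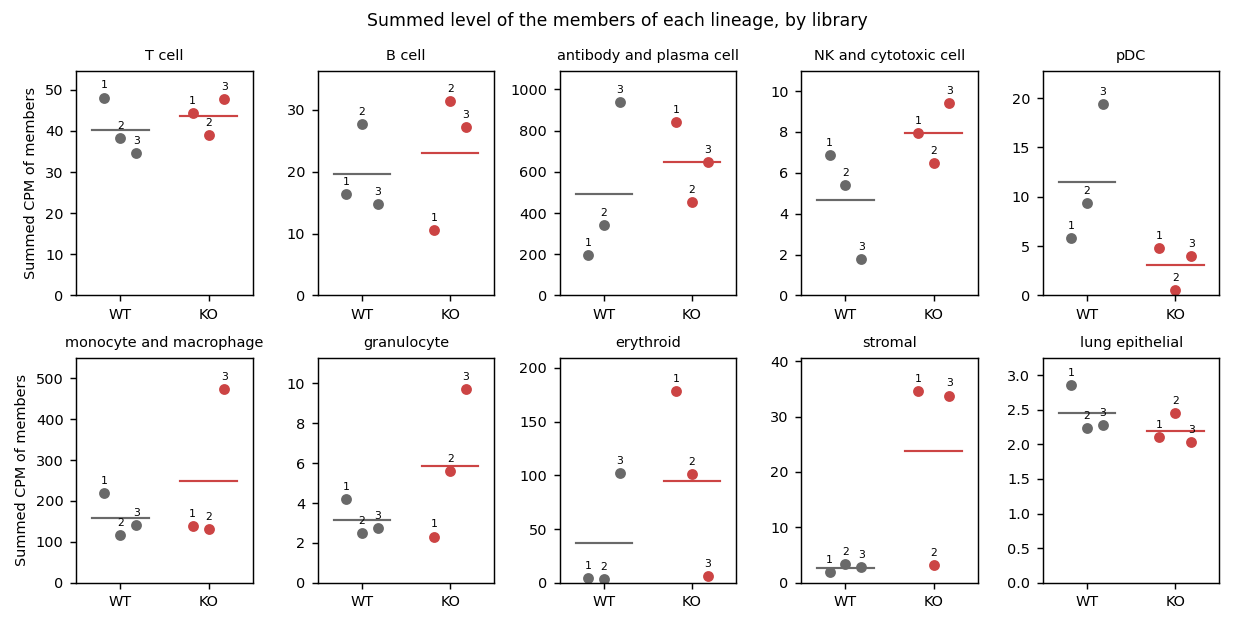
Summed CPM of the genes of each lineage (vertical axes, each from 0) in the WT and KO libraries, with points numbered by replicate and a line at the group mean. The T-cell panel is nearly level, whereas erythroid sums run from 3.18 to 178 and stromal sums from 1.87 to 34.6.

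Stromal genes were high in KO replicates 1 and 3 and low in all other libraries. Rarres2, which encodes the chemoattractant chemerin (chr6:48569696-48572789, minus strand, GRCm38), was at 0.275, 0.338 and 0.635 CPM in WT and at 22.2, 0.759 and 11.6 in KO. Dcn, the matrix proteoglycan decorin, was at 0.934, 0.812 and 1.48 CPM in WT and at 5.5, 1.17 and 10.4 in KO. Col3a1, a fibrillar collagen chain, was at 0.0, 1.62 and 0.0 CPM in WT and at 4.49, 0.642 and 7.94 in KO. KO replicate 2 lay among the WT values for Dcn and Col3a1 and just above them for Rarres2. Col1a1, another collagen chain, held 8 to 13 counts per WT library and 10 to 43 per KO library.

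The log2 fold change was 4.68 for Rarres2 (SE 1.26), 3.06 for Col3a1 (SE 1.18), 2.24 for Dcn (SE 0.76) and 1.7 for Col1a1 (SE 0.75), each with an edgeR adjusted p of 0.834. With 1 library left out at a time, the edgeR values ran from 3.62 (without KO replicate 1) to 5.3 for Rarres2 and from 2.34 to 8.96 (without WT replicate 2, which leaves the WT libraries at 0) for Col3a1. Rarres2 passed the threshold in DESeq2 (log2 fold change 4.78, adjusted p = 0.000147) and in edgeR without KO replicate 2 (5.3, adjusted p = 0.00814). Exons of Lrrc61 on the other strand cover 33.58% of the Rarres2 exon bases, and the strand setting of the counting is not given. Lrrc61 itself was at 63.9 to 72.1 CPM in WT and at 44 to 64 in KO, lowest in KO replicates 1 and 3. KO replicates 1 and 3 were the highest libraries for all 4 stromal genes, as they were for 4.33% of all genes tested. Those libraries were picked from these same 4 genes, so this match is a description and carries no test. Of 18 further stromal and vessel genes 10 could be tested, and 1 of these showed that order. The summed level of the 18 was 39.6, 47.7 and 38.9 CPM in WT and 40.6, 29.3 and 40.9 in KO. Ccl19, a chemokine that mature dendritic cells also make, led that list at 7.64, 12.9 and 8.36 CPM in WT and 6.95, 5.84 and 4.5 in KO, followed by the follicular chemokine Cxcl13 at 5.48 to 8.23 CPM.

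Myeloid genes fell into separate patterns. Lyz2, the lysozyme of monocytes and macrophages (chr10:117277331-117282321, minus strand), was at 192, 106 and 131 CPM in WT and at 136, 129 and 468 in KO. KO replicate 3 was highest, WT replicate 1 came next, and the remaining libraries were close to each other. The log2 fold change of Lyz2 was 0.76 (SE 0.63, edgeR adjusted p = 0.89), and -0.12 without KO replicate 3. Per length, Lyz2 was the most abundant of the 40 genes in WT replicate 1 (517 TPM) and KO replicate 3 (1120 TPM), Ighm in WT replicate 2 (429) and KO replicate 1 (714), and Igha in WT replicate 3 (865) and KO replicate 2 (334).

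Fcna, the ficolin of tissue macrophages (chr2:25624666-25628030, minus strand), was at 18.2, 3.99 and 4.29 CPM in WT and at 0.217, 1.11 and 0.441 in KO. All WT libraries lay above all KO libraries, with WT replicate 1 far above the rest. Cd300a, an inhibitory receptor, was at 5.99, 2.98 and 1.64 CPM in WT and at 0.0, 1.34 and 1.59 in KO. These groups did not overlap either, although WT replicate 3 and KO replicate 3 were close. The log2 fold change was -3.8 for Fcna (SE 0.93) and -1.86 for Cd300a (SE 0.75), both with an edgeR adjusted p of 0.834. DESeq2 called Fcna (-3.88, adjusted p = 0.000645), and leaving out 1 library at a time in edgeR gave -4.8 to -2.69 with no call.

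Ccr2, the receptor that draws monocytes from the blood, was at 2.53, 2.64 and 5.35 CPM in WT and at 1.52, 0.876 and 3.0 in KO, highest in WT replicate 3. Of 23 further monocyte and macrophage genes 19 were tested, and for 11 of these WT replicate 1 and KO replicate 3 were the highest libraries, against 6.03% of all genes tested. Of Lyz2, Fcna, Cd300a and Ccr2, only Lyz2 showed that order. The pair of libraries and the gene lists were chosen with results of these data known, so this match is a description and carries no test. Apoe, a lipid carrier, was at 82.7, 21.7 and 54.5 CPM in WT and at 43.2, 38.4 and 105 in KO, and Csf1r, the receptor for macrophage growth factor, was at 52.6, 18.7 and 22.7 in WT and at 11.4, 9.81 and 48.8 in KO. Both were highest in those same libraries. The summed level of the 23 was 337, 162 and 184 CPM in WT and 123, 139 and 450 in KO, with 1 high library in each group.

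The 4 granulocyte genes were low, together 2.32 to 9.7 CPM. S100a8 and S100a9, the calprotectin subunits of neutrophils, held 7 to 45 and 0 to 15 counts per library, each highest in KO replicate 3. Csf3r, the receptor for granulocyte growth factor, held 0 to 41 counts, and Prg2, the major basic protein of eosinophils, held 17 to 42. A count of 0 allows a level of up to 0.159 to 0.265 CPM, depending on the library. S100a9 was too low to be tested. Of the further granulocyte genes, Lcn2, a siderophore-binding protein, was at 4.01, 1.69 and 0.688 CPM in WT and at 0.0, 1.46 and 10.8 in KO, where KO replicate 3 stood above the highest values of S100a8, S100a9, Csf3r and Prg2. Il5ra, the eosinophil growth factor receptor, was at 0.0 to 1.67 CPM.

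The pDC genes had higher means in WT than in KO, and neither passed the test. Siglech, the sialic acid receptor that marks mouse pDCs (chr7:55768178-55778925, plus strand), was at 3.85, 5.34 and 12.6 CPM in WT and at 3.33, 0.0 and 1.41 in KO. WT replicate 3 was at least 71.9-fold above the level that 3 counts would give in KO replicate 2, and the lowest WT library was just above the highest KO library. Ly6d, a lymphoid surface protein also found on pDC precursors and B cells, was at 1.98, 3.99 and 6.83 CPM in WT and at 1.45, 0.584 and 2.56 in KO, where WT replicate 1 overlapped KO. The log2 fold change was -2.32 for Siglech (SE 0.78) and -1.61 for Ly6d (SE 0.63), both with an edgeR adjusted p of 0.834. The Siglech value was -3.69 without KO replicate 1. The 10 further pDC genes, many of which dendritic cells share, had an even sum of 351 to 409 CPM. Spib, a transcription factor of pDCs and B cells, was at 186 to 247 CPM and Bst2, an antiviral surface protein, at 71.1 to 138. Both were lowest in WT replicate 3. Less abundant genes, named after their values were seen, were uneven and highest in WT replicate 3, as was Siglech. Pacsin1 was at 4.62, 8.12 and 19.6 CPM in WT and at 5.07, 5.02 and 10.8 in KO. Ccr9 was at 5.83, 2.84 and 9.21 CPM in WT and at 3.84, 3.1 and 4.59 in KO.

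T-cell genes had an even summed level, 34.5 to 48.1 CPM over the 6 libraries, while single genes varied 1.95-fold (Cd3e) to 3.63-fold (Cd5) between libraries. Trac, the constant region of the T-cell receptor alpha chain (chr14:54220521-54224206, plus strand), was at 12.8, 9.4 and 5.29 CPM in WT and at 10.1, 11.9 and 12.5 in KO. Cd3e, a signalling chain of that receptor, was at 3.35, 4.94 and 3.65 CPM in WT and at 5.58, 4.5 and 6.53 in KO. Cd3g, its partner chain, was at 3.52, 5.27 and 2.17 CPM in WT and at 3.91, 4.56 and 4.94 in KO, and Cd3d held 28 to 79 counts per library. WT and KO overlapped for each of these genes, and WT replicate 3 was the lowest for Trac, Cd3g and Cd3d. The same library was the highest for Cd4, so opposite orders met in the sum.

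Cd4, the helper T-cell coreceptor, was at 13.8, 12 and 18.3 CPM in WT and at 11.2, 6.19 and 6.7 in KO, the reverse order, with all WT above all KO libraries (log2 fold change -0.89, SE 0.3, edgeR adjusted p = 0.834). Cd5, a scavenger-type receptor of T cells, was at 10.3, 3.45 and 3.6 CPM in WT and at 9.42, 8.53 and 12.5 in KO, where WT replicate 1 overlapped KO (0.76, SE 0.41). Counts of receptor V segments were few, 4 to 67 per library for the alpha chain and 6 to 41 for the beta chain, so no leading segment could be told. Among the 18 further T-cell genes, 0 passed the test. Tcf7, a transcription factor of T cells, was at 165 to 255 CPM and Icos, a costimulatory receptor, at 28.1 to 72.2. Per length, Tcf7 reached a mean of 256 TPM and Icos 47.4, against 36.7 for Trac and 3.86 to 6.36 for Cd3e, Cd3g and Cd3d. Which cells made Tcf7 and Icos was not tested.

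B-cell genes did not follow the antibody genes. Ms4a1, which encodes CD20, was at 7.31, 9.94 and 6.41 CPM in WT and at 3.77, 8.88 and 10.7 in KO. Cd79a, a signalling chain of the B-cell receptor, was at 1.59, 8.59 and 2.75 CPM in WT and at 2.25, 6.31 and 5.12 in KO, and Cd79b, its partner, was at 3.13, 5.41 and 2.17 in WT and at 2.75, 6.48 and 2.12 in KO. WT replicate 2 and KO replicate 2 were the 2 highest libraries for both chains, and the groups overlapped. Cr2, the complement receptor of B cells, was at 4.4, 3.79 and 3.44 CPM in WT and at 1.74, 9.69 and 9.35 in KO. The summed level was lowest in KO replicate 1 (10.5 CPM), the library with the highest Ighm. Of 15 further B-cell genes, 14 were tested and 0 passed, with Cd37, a tetraspanin, at 26.7 to 47.9 CPM and Cxcr5, the follicle-homing receptor, at 21.2 to 42.4.

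NK and cytotoxic genes were low. Gzma, a granule protease, held 0 to 5 counts per WT library and 12 to 24 per KO library, which did not overlap (log2 fold change 3.6, SE 1.16, edgeR adjusted p = 0.834, and 7.26 without WT replicate 1, which leaves the WT libraries at 0). Prf1, the pore-forming perforin, held 4 to 61 counts, Nkg7, a granule membrane protein, 22 to 52, and Ncr1, the NK receptor NKp46, 8 to 13, all with overlapping groups. Their summed level was lowest in WT replicate 3 (1.8 CPM) and 5.41 to 9.44 CPM elsewhere. Further genes of this lineage were led by Ccl5, a chemokine that activated dendritic cells also make, at 1110 to 2240 CPM, and Klrk1, which encodes NKG2D, at 43.5 to 85.0. Lung epithelial genes were as low: Sftpc, a surfactant protein, held 0 to 42 counts and Ager, the receptor of alveolar type 1 cells, 0 to 43. Epcam, an adhesion protein also known on dendritic cells, was at 5.94 to 15.1 CPM and Muc1, a mucin, at 2.2 to 7.57.

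Across the whole table, KO against WT gave no gene past an adjusted p of 0.05 in edgeR (0.0% of 12568), with 725 at an unadjusted p under 0.05, and DESeq2 called 10. Of the 40 genes, 38 passed the low-count filter, all but S100a9 and Alas2, and 0 passed the test. At an unadjusted p under 0.05 there were 11 of 38 (28.9%), against 5.77% of all genes tested. The 6 higher in KO were Rarres2, Gzma, Dcn, Col3a1, Col1a1 and Iglc2 (background 2.71%), and the 5 lower were Fcna, Cd4, Siglech, Ly6d and Cd300a (background 3.06%). The groups did not overlap for 8 of 38 (21.1%), against 10.6% of all genes tested: Gzma, Iglc2 and Rarres2 were higher in KO (background 5.46%) and Cd4, Ighg2c, Siglech, Fcna and Cd300a lower (background 5.19%). The median log2 fold change was 0.59 for the 38 and 0.0 for all genes tested, with 76.3% and 50.6% above 0. Since the genes were chosen with results of these data known, these shares are a description and carry no test.

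**Figure D4:**
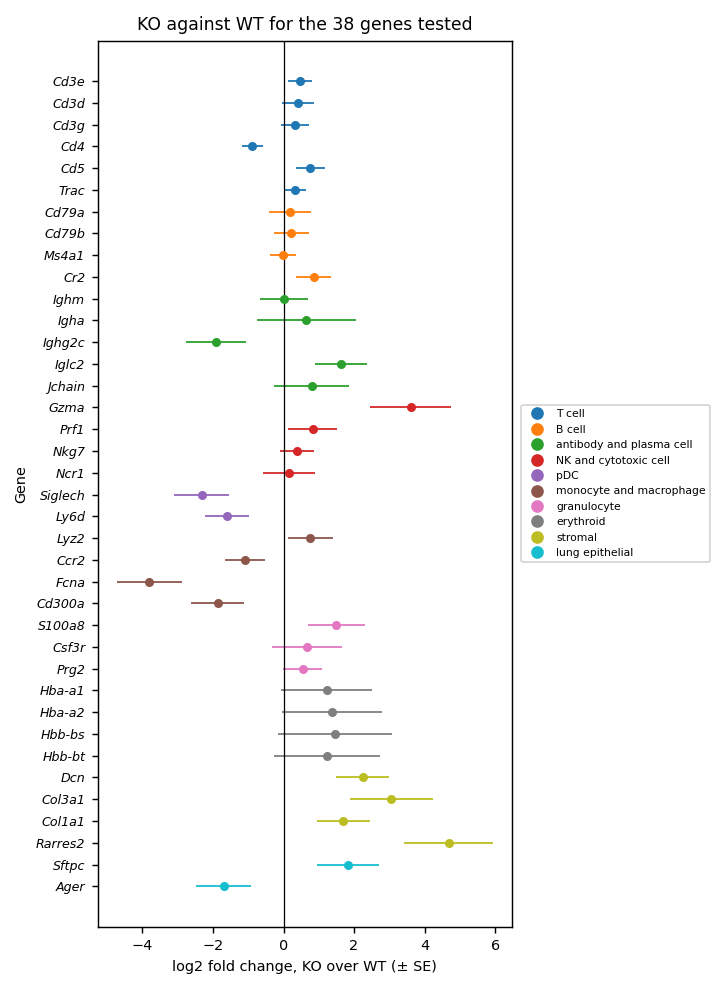
Log2 fold change, KO over WT, with its standard error (bars) for the 38 genes that passed the low-count filter, coloured by lineage. Values run from -3.8 for Fcna to 4.68 for Rarres2, and none has an edgeR adjusted p under 0.834.

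The spread between libraries was wide for these genes. The coefficient of variation over the 6 libraries had a median of 71.2% for the 38 genes and 20.2% for all genes tested. Among genes averaging at least 5 CPM, the median was 71.5% for 15 of them and 16.4% for 9391 genes in all. It was 111% for the 4 globin genes and 30.1% for the 6 T-cell genes, and the 4 stromal genes ran from 93.7% to 152%. KO replicate 3 held the highest value of 13 of the 40 genes, against 19.1% of all genes tested, and the other libraries held 4 to 7 each. WT replicate 3 alone held the lowest value of 9 genes and WT replicate 2 of 8, ties left out, and WT replicate 2 was at 0 for 6.

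No library was high or low for all lineages. The ranks below are for sums over the 40 genes, and some change in the wider lists. There WT replicate 3 was lowest in pDC genes (351 CPM), and KO replicate 3 in T-cell (303 CPM) and NK genes (1240 CPM). Erythroid sums were highest in KO replicate 2 (23.2 CPM) and stromal sums in WT replicate 2 (47.7 CPM). Antibody, monocyte and macrophage, and granulocyte sums kept their highest library, and B-cell sums their lowest. WT replicate 3 was highest in summed antibody (937 CPM) and pDC genes (19.4 CPM) and lowest in T-cell (34.5 CPM) and NK genes (1.8 CPM). KO replicate 1 was highest in erythroid (178 CPM) and stromal genes (34.6 CPM) and lowest in B-cell genes (10.5 CPM). KO replicate 3 was highest in monocyte and macrophage (473 CPM), granulocyte (9.7 CPM) and NK genes (9.44 CPM), with few globin reads (5.91 CPM). KO replicate 2 had globin reads (101 CPM), a stromal sum (3.15 CPM) within the WT range (1.87 to 3.31 CPM) and the lowest pDC level (0.584 CPM). WT replicate 1 was second in monocyte and macrophage genes (219 CPM) and lowest in antibody (195 CPM) and stromal genes (1.87 CPM), and WT replicate 2 was lowest in erythroid genes (3.18 CPM). The log2 ratio of the group means, KO over WT, ran from -1.89 for pDC genes to 3.16 for stromal genes. It was 1.37 for erythroid genes (4.57 without WT replicate 3), 0.9 for granulocyte, 0.76 for NK, 0.64 for monocyte and macrophage (-0.23 without KO replicate 3), 0.4 for antibody (1.27 without WT replicate 3), 0.23 for B-cell (-0.06 without KO replicate 2), 0.12 for T-cell and -0.16 for lung epithelial genes.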

How the data were processed

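Values deposited by the authors are unnormalized counts, 1 row for each Ensembl gene. Per the submitters' processing notes, reads were handled with HISAT2 2.0.5 and HTSeq on mm10. Not given in the sources used here are the annotation, the strand setting and the treatment of multi-mapping reads. Per the labels' protocols, RNA was extracted with Trizol and read in pairs on an Illumina NovaSeq. Columns were matched to samples by the library name in each description.

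GENCODE M21 named 32235 of 32285 features (99.85%). Genes kept by filterByExpr (12568) were scaled by TMM and tested KO against WT in edgeR 4.0.16 (glmQLFit with robust estimation and bias-adjusted deviances, glmQLFTest) in R 4.3.3, p-values adjusted by Benjamini-Hochberg, and 0.05 as the limit. An SE is the log2 fold change over the square root of F. CPM are TMM-scaled, and TPM use exon lengths. A low level is set against 3 counts per library. On simulated data for 12178 genes, the test recovered 18%, 46%, 94% and 98% of changes of 1.5, 2, 3 and 4-fold. Recovery was not measured separately for the other-lineage genes. The 38 of them tested had a median coefficient of variation of 71.2%, against 20.2% for all genes tested. The simulated shares therefore do not give the power of the test for these 38 genes. DESeq2 1.42.0 and limma 3.58.1 (voom) were alternatives.

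The 40 genes and the wider lists (189 of 190 genes found) were chosen with earlier results of these data known. Genes reaching 5 CPM in a library have every value given, others count ranges. The 2 most abundant genes of each wider list are named. Replicate numbers did not pair the samples. Of the features, 13875 had no count.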

Additional observations from a re-analysis of the deposited data

How the results depend on the processing

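Of the alternatives tried, the quasi-likelihood fit without bias-adjusted deviances was added after the data were seen. Genes past an adjusted p of 0.05 numbered 3 without a low-count filter, 10 in DESeq2, 0 to 7 with 1 library left out (7 without KO replicate 1, 1 without WT replicate 3 and 1 without KO replicate 2) and 0 under the other settings. Those at an unadjusted p under 0.05 numbered 376 (without KO replicate 2) to 1621 (without KO replicate 1) with 1 library left out, 444 without KO replicate 3, and 629 to 942 otherwise. With the replicate number as a block the counts were 0 and 942, and Ighm turned from 0.01 to -0.29 (-0.28 in voom). Same-numbered libraries had deviation correlations of 0.005, 0.028 and -0.001, and the block changed no call.

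With 1 library left out, log2 fold changes turned sign for Cd79a (-0.23 to 1.08), Cd79b (-0.5 to 0.61), Ms4a1 (-0.26 to 0.31), Ighm (-0.98 to 0.35), Ncr1 (-0.09 to 0.39) and Lyz2 (-0.12 to 1.06). The log2 ratios of summed CPM ranged from 0.02 to 1.27 for antibody, -0.23 to 0.94 for monocyte and macrophage and 0.54 to 4.57 for erythroid genes. Without the most abundant gene they were 0.48 for T-cell, -2.24 for monocyte and macrophage and 1.68 for lung epithelial genes. With the wider lists added they were -0.12 for T-cell, -0.17 for NK, 0.09 for pDC, 0.44 for stromal and 0.08 for lung epithelial genes. Single genes weigh heavily in some of these larger sums. In WT means, Ccl5 held 1720 of 1810 CPM for NK, Tcf7 216 of 421 for T-cell and Spib 207 of 379 for pDC genes. The cause of the differences between WT and KO was not tested. B-cell genes turned from 0.23 to -0.06 without KO replicate 2 and to -0.08 with the wider list, within the spread of the libraries. The remaining 612 values of single genes kept their direction and side of the threshold. With 11755944 to 18450678 counts per library, levels under about 0.2 CPM could not be told from 0.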

Other observations

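Genes beyond the 40 also differed by library. Among 9391 genes averaging at least 5 CPM, the 30 with the largest coefficient of variation held 6 antibody genes and 2 haemoglobin genes. Of 22 others, which include Rarres2 and the macrophage genes Ms4a7 and Adgre1 of the wider list, 12 were highest in KO replicate 3, with WT replicate 1 second for 11 of these. Those given here were named after their values were seen. Saa3, an acute-phase serum amyloid, was at 56.9, 20.4 and 6.78 CPM in WT and at 1.23, 12.7 and 256 in KO. Gpnmb, a glycoprotein of macrophages, was at 46.9, 11.6 and 2.91 CPM in WT and at 2.17, 8.29 and 178 in KO. Spp1, the secreted protein osteopontin, was at 9.78, 5.61 and 1.64 CPM in WT and at 4.64, 4.67 and 42.2 in KO, and Adgre1, which encodes the macrophage marker F4/80, was at 19.6, 3.31 and 2.06 in WT and at 2.17, 1.4 and 26.5 in KO. Arg1, the arginase of alternatively activated macrophages, was at 24.4 CPM in KO replicate 3 and at 0.0 to 3.68 elsewhere.

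Another 5 of the 30 were highest in WT replicate 2, the library with the highest Xcr1 and Cd8a. Trim12a, a member of the TRIM family, was at 32.1 CPM there and at 1.1 to 1.76 elsewhere. Trim30d, of the same family, was at 68.5 CPM there and at 4.13 to 8.38 elsewhere, and Myo1h, a myosin, was at 93.7 there and at 3.97 to 11.6 elsewhere. None of these genes passed the KO against WT test in edgeR, in which no gene did at an adjusted p under 0.05, with 725 at an unadjusted p under 0.05 and 10 called by DESeq2.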
